A study of Homo sapiens with 6 samples.

Results

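The genes described here are 32 genes of the integrated stress response that ATF4 and DDIT3 (the protein CHOP) direct: kinases that start it, its transcription factors, its feedback regulators, and reported target genes in amino acid, serine and one-carbon metabolism, secretion and trafficking. A gene was taken where the annotation of the array (Affymetrix HG-U133 Plus 2.0) gave it a probe set with a single gene symbol, and the probe set with the highest mean log2 over all 6 arrays stood for the gene. All 32 genes of the list had such a probe set, of 19777 genes measured in all. RNA came from SW480, a colorectal adenocarcinoma cell line. The labels give 3 biological replicates of cells transfected to overexpress CPEB3, which binds cytoplasmic polyadenylation elements of mRNAs and regulates their translation, and 3 of a negative control (NC). The design asks how transcript levels differ between these groups. The construct, the NC vector, the time after transfection and whether the cells were a pool or a clone were not stated in the labels. No culture or day is named for the biological replicates, and p-values therefore cover only the spread among these 6 samples.

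In the integrated stress response, the kinases EIF2AK1 (HRI), EIF2AK2 (PKR), EIF2AK3 (PERK) and EIF2AK4 (GCN2) phosphorylate the translation initiation factor eIF2 after heme or mitochondrial stress, double-stranded RNA, unfolded proteins in the endoplasmic reticulum and amino acid shortage. General translation falls, while ATF4 mRNA is translated more through its upstream open reading frames. ATF4, often paired with C/EBP proteins, switches on genes for amino acid supply together with DDIT3, and PPP1R15A then brings a phosphatase to eIF2 and ends the response. The arrays measure mRNA, so neither phosphorylation of eIF2 nor translation of ATF4 was measured.

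ATF4 and C/EBP dimers bind composite elements with the core TGATGNAA. This core was searched on both strands in RefSeq promoter windows (GRCh38.p14, 250 bases before to 50 bases after each listed start), which held 27 of the 32 genes. With all listed starts, 8 of these 27 genes had a match (29.63%), against 556 of 15383 tested genes with a window (3.61%). The genes have different numbers of listed starts, and with the first listed start alone the counts were 5 of 27 (18.52%) against 403 of 15383 (2.62%). Of the genes that passed as lower in the comparison, 5 of 16 had a match (31.25%), and of the others 3 of 11 (27.27%). Both of these shares rest on few genes, and a match describes letters, not a bound site. The 5 genes without a window were all among those that did not pass as lower. The list of 32 includes reported target genes, and this choice alone can raise its share above that of all genes. The sites of the 5 lower genes are shown first because they belong to the genes that changed, and those of MTHFD1L and FGF21 because these genes hold the same core and did not pass the test. DDR2, the third such gene, is not printed because its core lies after the start. Capitals mark the core or its reverse complement, and each line reads 5′ to 3′ on the strand of the gene.
ASNS: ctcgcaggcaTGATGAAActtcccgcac
CEBPG: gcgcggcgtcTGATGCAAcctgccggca
CHAC1: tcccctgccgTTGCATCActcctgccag
JDP2: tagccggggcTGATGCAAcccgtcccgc
PPP1R15B: ccgccccggcTGATGCAAcctcacgctg
MTHFD1L: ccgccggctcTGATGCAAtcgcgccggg
FGF21: aacaccaggaTTGCATCAgggaggagga
The ASNS site lies at chr7:97872459-97872486 on the minus strand, with its core 68 to 61 bases before the start. The CEBPG site is at chr19:33374061-33374088 (plus strand, core 42 to 35 bases before a start), the CHAC1 site at chr15:40953252-40953279 (plus strand, 209 to 202 bases before) and the JDP2 site at chr14:75427996-75428023 (plus strand, 16 to 9 bases before). The PPP1R15B site is at chr1:204412027-204412054 (minus strand, 227 to 220 bases before). The MTHFD1L site is at chr6:150866347-150866374 (plus strand, 129 to 122 bases before its first listed start) and the FGF21 site at chr19:48755460-48755487 (plus strand, 54 to 47 bases before). The core of ASNS has an A in the free position, whereas the other 6 printed cores read TGATGCAA on one strand or the other. That stricter form stood in the first listed window of 4 of the 27 genes and of 111 of the 15383 tested genes (0.72%).

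CPEB3 mRNA was not higher under the CPEB3 label. Its brightest probe set read 5.37 ± 0.03 under the CPEB3 label and 5.32 ± 0.07 under the NC label (log2 intensity, SD, n = 3 each), and its most variable, dim probe set 2.31 ± 0.21 against 3.75 ± 0.21. Of its 4 probe sets 3 were lower under the CPEB3 label, all dim, and 0 were higher (limma fit of all probe sets, Benjamini-Hochberg adjusted p under 0.05). Each direction given here therefore rests on the labels. Epithelial markers matched a colorectal line in part, with EPCAM at 11.13 and 11.09 and CDX2 at 4.85 and 4.83 in the arrays labelled CPEB3 and NC. At that threshold in the fit of genes, KRT20 (difference 0.87) and KRT18 (0.26) were higher among 12 epithelial markers. So were ITGAM (0.32) among 9 leukocyte markers and DCN (0.30) among 12 fibroblast and endothelial markers, and 0 markers were lower. Over all genes 10.9% were higher. Leukocyte markers ran from PTPRC (1.62 and 1.48) to CD79A (5.30 and 5.15), with 6 below the median probe set. Summed intensity was 8608 to 8902 against 7810 to 7948 for the epithelial markers. It was 131 to 143 against 117 to 127 for the leukocyte and 223 to 233 against 203 to 217 for the fibroblast and endothelial markers. All 3 sums moved with the group, the opposite way to the stress response genes, and their part in the results was not tested. In bulk RNA of a cell line, a change in some of the cells and a change in all of them cannot be told apart. The hybridization spike-ins were lower in the arrays labelled CPEB3 by a mean log2 difference of -0.18.

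Of the 32 stress response genes, 16 were lower in the arrays labelled CPEB3 and 1 was higher (limma, Benjamini-Hochberg adjusted p under 0.05 over all genes), and 15 did not pass. Over all genes 12.5% were lower and 10.9% higher by the same rule. These shares include dim genes, those below the median probe set. With the dim genes left out, 2829 of 12918 genes were lower and 2430 higher. Of the 28 members left, 16 were lower and 1 higher. The median difference was -0.35 on the log2 scale, against 0.02 over all genes. The 3 arrays of each group did not overlap in 18 of the 32 genes in the lower direction and in 3 in the higher, against 19.1% and 19.9% of all genes. By role, all 4 genes grouped as feedback regulators (PPP1R15A, PPP1R15B, TRIB3 and CHAC1) and 5 of 7 transcription factors fell. Of 6 serine and one-carbon enzymes 3 fell, and of 3 secreted factors 2. Of 5 asparagine, proline and transsulfuration enzymes 1 fell, and of 4 receptor, channel and trafficking genes 1. None of the 3 listed kinases fell, while EIF2AK2, a kinase outside the list, did. The roles hold few genes, and differences between them were not tested. PPP1R15A, DDIT3 and CEBPB fell at least 2-fold, a size reached by 0.865% of all genes in the lower direction.

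**Figure D1:**
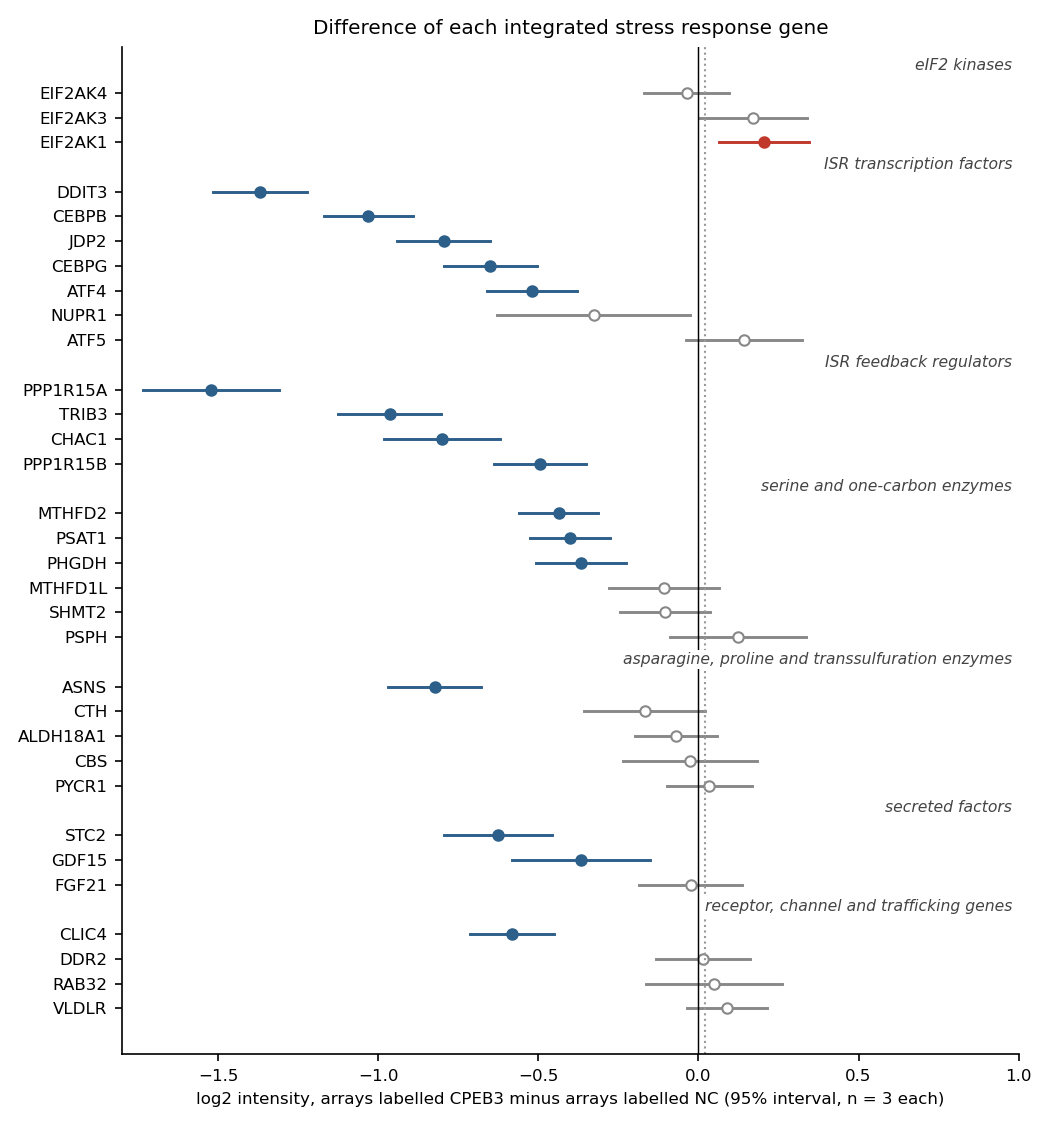
Log2 difference of each of the 32 genes (arrays labelled CPEB3 minus arrays labelled NC, horizontal axis) with its 95% interval from limma, 3 arrays a group, grouped by role. Filled blue points fell, the filled red point rose and open grey points did not pass; the dotted line is the median of all genes (0.02). The genes grouped as feedback regulators and most transcription factors lie to the left. EIF2AK1, at 0.21, is the 1 gene whose filled point lies to the right of 0.

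Among the transcription factors, ATF4 itself fell modestly. Its log2 intensity was 10.46, 10.46 and 10.40 in the NC arrays and 9.99, 9.93 and 9.83 in the arrays labelled CPEB3. The groups lay apart, with a difference of -0.52 (SE 0.06, 1.43-fold lower; limma, Benjamini-Hochberg adjusted p = 4.34e-04). DDIT3, which promotes cell death in prolonged stress, read 8.51, 8.60 and 8.62 in NC and 7.12, 7.27 and 7.22 where CPEB3 was labelled. Every array labelled CPEB3 was more than a log2 unit below every NC array, and the fall was 2.58-fold (difference -1.37, SE 0.06; limma, Benjamini-Hochberg adjusted p = 1.37e-06). CEBPB, a C/EBP protein of inflammation and differentiation that can pair with ATF4, stood at 9.92, 10.01 and 9.94 in NC and at 8.99, 8.91 and 8.87 in the other group. It fell 2.04-fold, with a gap of 0.93 between the nearest arrays of the groups (difference -1.03, SE 0.06; limma, Benjamini-Hochberg adjusted p = 6.06e-06).

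CEBPG, a short C/EBP protein without an activation domain that pairs with ATF4, had values of 8.08, 8.16 and 8.18 in NC and 7.57, 7.43 and 7.47 in the arrays labelled CPEB3. The difference was -0.65 (SE 0.06, 1.57-fold lower; limma, Benjamini-Hochberg adjusted p = 1.36e-04), and its other probe set fell too (-0.42). JDP2, a repressor of the AP-1 family that binds CHOP, was 5.77, 5.82 and 5.81 in NC against 4.95, 5.11 and 4.95. It fell 1.74-fold (difference -0.80, SE 0.06; limma, Benjamini-Hochberg adjusted p = 3.89e-05), although its much dimmer other probe set differed by -0.02. ATF5, a close relative of ATF4, and NUPR1, a small stress-induced chromatin protein, did not pass. ATF5 was 5.43, 5.73 and 5.68 in NC and 5.74, 5.74 and 5.78 in the other group, a difference of 0.14 (95% interval -0.04 to 0.32). NUPR1 was dim, at 3.65, 3.93 and 4.28 in NC and 3.68, 3.65 and 3.55 in the arrays labelled CPEB3, and its groups overlapped through the lowest NC array (difference -0.33, 95% interval -0.63 to -0.03; limma, Benjamini-Hochberg adjusted p = 0.114, or 0.0206 without NC replicate 1). Without NC replicate 3 the difference was -0.165 (limma, Benjamini-Hochberg adjusted p = 0.269).

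The 4 genes grouped as feedback regulators all fell, although of these CHAC1 breaks down glutathione and PPP1R15B is constitutive. PPP1R15A (GADD34), the stress-induced subunit that brings protein phosphatase to eIF2, had log2 intensities of 6.53, 6.72 and 6.89 in NC and 5.25, 5.25 and 5.09 in the arrays labelled CPEB3. This was the steepest fall of the 32 genes (difference -1.52, SE 0.09, 2.87-fold; limma, Benjamini-Hochberg adjusted p = 7.69e-06), and the other probe set of the gene fell 2.44-fold. PPP1R15B (CReP), the constitutive counterpart of that subunit, was 8.08, 8.05 and 8.10 in NC and 7.68, 7.52 and 7.54 where CPEB3 was labelled. It fell 1.41-fold (difference -0.50, SE 0.06; limma, Benjamini-Hochberg adjusted p = 6.15e-04), with groups apart by 0.37. The catalytic subunits that both proteins recruit, PPP1CA, PPP1CB and PPP1CC, did not pass, with differences of 0.04, 0.00 and -0.04.

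TRIB3, a pseudokinase induced by ATF4 and DDIT3 that restrains both, read 9.02, 9.12 and 9.07 in NC and 7.99, 8.12 and 8.21 in the other group. All arrays labelled CPEB3 lay at least 0.81 below the NC arrays, a 1.95-fold fall (difference -0.96, SE 0.07; limma, Benjamini-Hochberg adjusted p = 2.19e-05) that became -0.60 with the mean of its probe sets, the dimmer of which differed by -0.24. CHAC1, a gamma-glutamyl cyclotransferase that breaks down glutathione, was 6.29, 6.38 and 6.25 in NC and 5.36, 5.51 and 5.65 where CPEB3 was labelled. It fell 1.74-fold (difference -0.80, SE 0.08; limma, Benjamini-Hochberg adjusted p = 1.50e-04).

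**Figure D2:**
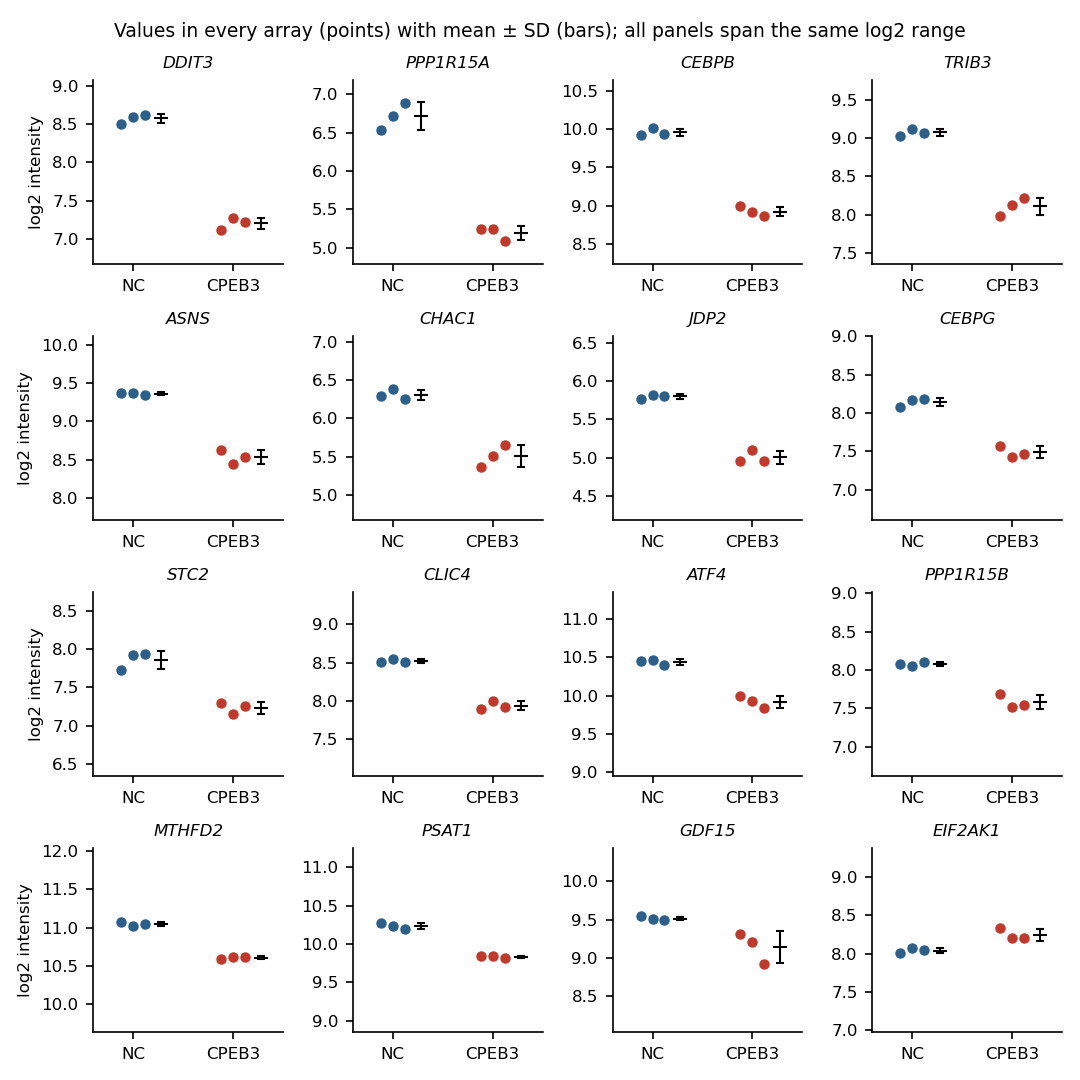
Log2 intensity (vertical axis) of 16 of the genes in each of the 3 NC arrays (blue) and the 3 arrays labelled CPEB3 (red), with the mean ± SD of each group as a black bar; all panels span the same log2 range. The groups are apart in all 16 panels, most widely for DDIT3 and PPP1R15A, and GDF15 and EIF2AK1 have the smallest gaps.

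Of 5 enzymes for asparagine, proline and transsulfuration 1 fell, beside 12.5% of all genes. ASNS, asparagine synthetase and a classical ATF4 target, was 9.37, 9.37 and 9.34 in NC and 8.63, 8.45 and 8.54 in the arrays labelled CPEB3. Its fall of 1.77-fold (difference -0.82, SE 0.06; limma, Benjamini-Hochberg adjusted p = 3.02e-05) rests on a probe set that can match several transcripts. The only other probe set of ASNS lay near the floor in both groups (1.53 and 1.53) and differed by 0.00. ALDH18A1 and PYCR1, which make proline, and CTH and CBS, the enzymes of transsulfuration that turn homocysteine into cysteine, did not pass. Their differences ran from -0.17 (CTH, 95% interval -0.36 to 0.02) to 0.03 (PYCR1, 95% interval -0.10 to 0.17), with ALDH18A1 at -0.07 and the dim CBS at -0.03.

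In the serine and one-carbon pathway, MTHFD2, the mitochondrial folate dehydrogenase and cyclohydrolase, stood at 11.08, 11.02 and 11.04 in NC and at 10.59, 10.62 and 10.62 where CPEB3 was labelled. It fell 1.35-fold (difference -0.44, SE 0.05; limma, Benjamini-Hochberg adjusted p = 5.15e-04) with little spread in either group. PSAT1, the aminotransferase of serine synthesis, was 10.28, 10.23 and 10.20 in NC and 9.84, 9.84 and 9.82 in the other group, a fall of 1.32-fold (difference -0.40; limma, Benjamini-Hochberg adjusted p = 9.19e-04). PHGDH, which opens the same pathway, was 6.999, 7.12 and 7.14 in NC and 6.71, 6.70 and 6.76 in the arrays labelled CPEB3, a fall of 1.29-fold (difference -0.37; limma, Benjamini-Hochberg adjusted p = 0.00277). PSPH, the phosphatase that completes serine synthesis, was not among those that fell: it read 7.01, 6.85 and 6.78 in NC and 7.19, 6.93 and 6.89 in the other group (difference 0.12, 95% interval -0.09 to 0.34). SHMT2, which splits serine in mitochondria, differed by -0.10 (95% interval -0.24 to 0.04) and the dim MTHFD1L, a mitochondrial formyl-tetrahydrofolate synthetase, by -0.11 (95% interval -0.28 to 0.06). The calls of PSAT1 and PHGDH were lost when arrays were centred on the spike-ins (limma, Benjamini-Hochberg adjusted p = 0.0518 and 0.0827), while that of MTHFD2 was kept with a difference of -0.26.

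Of the secreted factors, STC2, stanniocalcin 2, a glycoprotein of calcium and phosphate balance, was 7.73, 7.92 and 7.93 in NC and 7.29, 7.15 and 7.26 in the arrays labelled CPEB3. It fell 1.54-fold (difference -0.63, SE 0.07; limma, Benjamini-Hochberg adjusted p = 4.00e-04), and at its other probe set 2.30-fold, so the size of the fall depends on the probe set. GDF15, a stress cytokine of the TGF-beta superfamily that lowers appetite, was 9.54, 9.50 and 9.50 in NC and 9.32, 9.21 and 8.92 in the other group. The arrays labelled CPEB3 were spread more widely than those of NC, and the fall was 1.29-fold (difference -0.37, SE 0.10; limma, Benjamini-Hochberg adjusted p = 0.0226). It did not pass without NC replicate 1 (0.0694), without NC replicate 2 (0.0528), with spike-in centring (0.162) or when probe sets ending in _s_at, _x_at or _a_at were dropped (0.118). FGF21, a hormone of fasting and mitochondrial stress, was low, just above the median probe set (3.9). It read 4.09, 4.01 and 4.08 in NC against 4.17, 4.001 and 3.94 and did not pass (difference -0.02, 95% interval -0.19 to 0.14).

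CLIC4, an intracellular chloride channel family protein, was 8.51, 8.54 and 8.51 in NC and 7.89, 8.01 and 7.92 where CPEB3 was labelled. All 3 of its probe sets fell by a similar amount (-0.58, -0.56 and -0.61; at the brightest SE 0.06, limma, Benjamini-Hochberg adjusted p = 1.50e-04). VLDLR, a lipoprotein receptor, lay near the floor at 1.52 to 1.58 in NC and 1.61 to 1.67 in the other group. Neither it nor DDR2, a collagen receptor kinase (4.45 in NC, difference 0.01), nor RAB32, a GTPase of mitochondria and melanosomes (4.11 in NC, difference 0.05), passed, and at such levels the arrays say little about change.

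The kinases of the list did not fall. EIF2AK1 was 8.01, 8.07 and 8.05 in NC and 8.34, 8.20 and 8.20 in the arrays labelled CPEB3, the single rise past the threshold (difference 0.21, SE 0.06, 1.15-fold; limma, Benjamini-Hochberg adjusted p = 0.0417). This call was lost when any 1 of the 6 arrays was left out (limma, Benjamini-Hochberg adjusted p from 0.0638 to 0.125) and in the fit of single probe sets (0.0763). EIF2AK3, the kinase of the endoplasmic reticulum, was 6.47, 6.32 and 6.24 against 6.42, 6.55 and 6.56, with overlapping groups (difference 0.17, 95% interval 0.0021 to 0.34, limma Benjamini-Hochberg adjusted p = 0.137). With the mean of its probe sets it passed as higher (difference 0.181; limma, Benjamini-Hochberg adjusted p = 0.0435). EIF2AK4, the sensor of uncharged tRNA, differed by -0.04 (95% interval -0.17 to 0.10). The fourth kinase, EIF2AK2, which is induced by interferon and is not among the 32 genes, fell 1.95-fold, from 9.07, 8.87 and 9.02 in NC to 7.94, 8.16 and 7.96 (difference -0.97, SE 0.08; limma, Benjamini-Hochberg adjusted p = 4.86e-05).

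Around the kinases, a list of 22 genes held those for eIF2, its exchange factor eIF2B and their modulators. Of these, 2 were higher, 2 lower and 18 did not pass, with a median of 0.00. The counts lay near the shares of all genes (10.9% higher and 12.5% lower), which include dim genes. None of the 22 was dim, and without dim genes the shares were larger, at 2430 of 12918 genes higher and 2829 lower. With the mean of probe sets 4 of the 22 were higher. Besides EIF2AK2, DENR, a factor of reinitiation after upstream open reading frames, fell by 0.27 on the log2 scale. DNAJC3 (P58IPK), a chaperone reported to inhibit EIF2AK3 and EIF2AK2, rose by 0.44 and EIF2D, which delivers initiator tRNA without eIF2, by 0.38. The alpha, beta and gamma subunits of eIF2 (EIF2S1, EIF2S2 and EIF2S3) differed by 0.00, -0.12 and 0.07 and none passed. With spike-in centring, under which 39.3% of all genes were higher and 5.25% lower, 7 of the 22 were higher and 1 lower.

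Of 42 measured other genes reported as targets of ATF4 or CHOP, 27 fell and 0 rose, against 12.5% and 10.9% of all genes. Their median was -0.32. ATF3, a repressor and activator induced early in stress, fell from 8.71 ± 0.05 to 6.76 ± 0.08 (SD, n = 3 each; 3.87-fold) and DDIT4, an inhibitor of mTORC1, from 10.63 ± 0.03 to 8.70 ± 0.07. SLC7A11, the cystine and glutamate exchanger, fell by 1.13 on the log2 scale and the angiogenic factor VEGFA by 1.10. Of 9 amino acid and taurine transporters in the list 7 fell and 0 rose. Of 12 aminoacyl-tRNA synthetases 6 fell and 0 rose, both beside the same shares of all genes. SLC3A2, the heavy chain shared by SLC7A11 and SLC7A5, fell by 0.69 and the cysteinyl-tRNA synthetase CARS1 by 0.80, both chosen after their values were seen. Several of these genes answer other stimuli too, such as hypoxia for VEGFA and DDIT4, and the part of each stimulus was not tested. With spike-in centring 17 of the 42 were lower and 7 higher, against 5.25% and 39.3% of all genes.

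Genes were also counted in the branches of the unfolded protein response that run through ERN1 (IRE1) and ATF6. Of 27 measured, 10 were higher and 4 lower, against 10.9% and 12.5% of all genes. The count of lower genes lay near its share, and the median was 0.15. The chaperone partner SDF2L1 rose by 0.44, the protease MBTPS2 that cleaves ATF6 by 0.39 and the lectin chaperone CALR by 0.36, while ERN1 itself fell from 5.75 ± 0.20 to 5.17 ± 0.12 (SD, n = 3 each; difference -0.57). The difference between these counts and those of the 32 genes was not tested. With the mean of probe sets 2 of the 27 were lower, and with spike-in centring 17 were higher and 1 lower, against 39.3% and 5.25% of all genes. In a list of 10 other genes of C/EBP and bZIP names, 4 fell and 1 rose, against 12.5% and 10.9% of all genes. The count of rises lay near its share. CEBPZ is in it by its symbol and is a CCAAT-binding factor without the bZIP domain. BATF2, which interferon induces, fell from 7.34 ± 0.09 to 4.52 ± 0.36 (SD, n = 3 each), CREB1 fell by 0.40, CEBPD by 0.30 and ATF2 by 0.26, and BATF3 rose by 0.22. CEBPA, CEBPE and CEBPZ, with differences of 0.06, -0.10 and -0.05, did not pass. With spike-in centring 3 of the 10 were higher and 1 lower, against 39.3% and 5.25% of all genes.

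**Figure D3:**
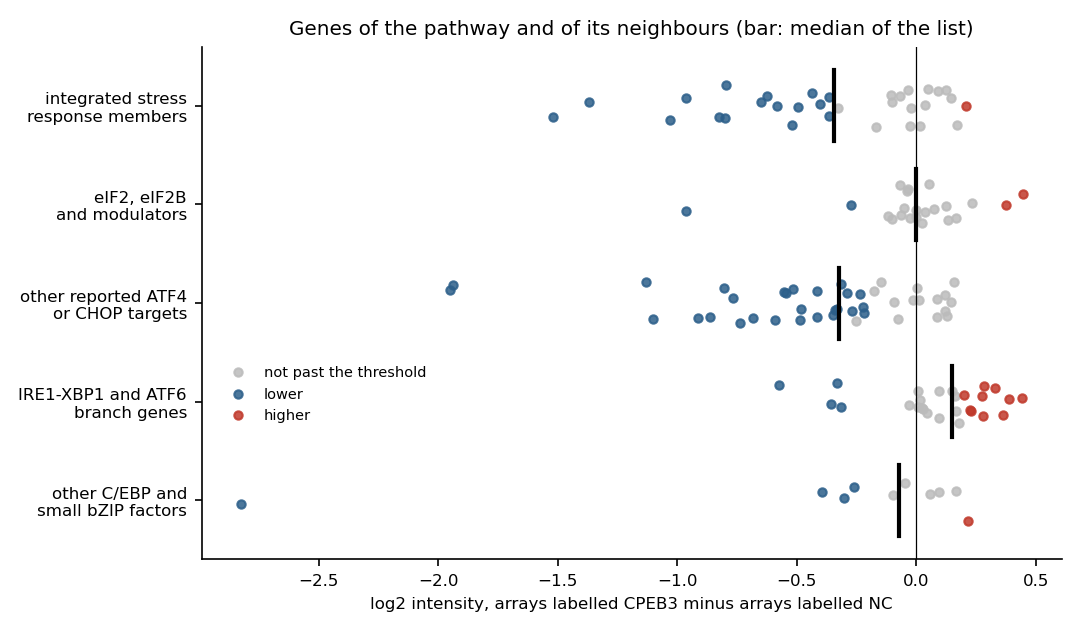
Log2 difference (arrays labelled CPEB3 minus arrays labelled NC, horizontal axis) of every measured gene in the list of 32 and in each of 4 neighbouring lists, with the median of each list as a black bar. Blue genes fell, red genes rose and grey genes did not pass; the medians are -0.35 for the 32 genes, 0.00 for eIF2 and eIF2B, -0.32 for the other targets, 0.15 for the IRE1 and ATF6 branches and -0.07 for the other C/EBP and bZIP genes.

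The 32 genes had 63 single-symbol probe sets, of which 23 were lower and 1 higher in a fit of all 54613 probe sets, where 7.86% were lower and 6.59% higher. Of the 16 genes that fell, 10 had several probe sets, and in 6 of these every probe set fell. In JDP2, TRIB3, ASNS and GDF15 the dimmer probe sets did not pass. The 1 probe set that was higher was a dim one of CBS (2.66 in NC, 2.93 in the arrays labelled CPEB3), and the other pair of CBS probe sets differed by -0.03 and 0.09.

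**Figure D4:**
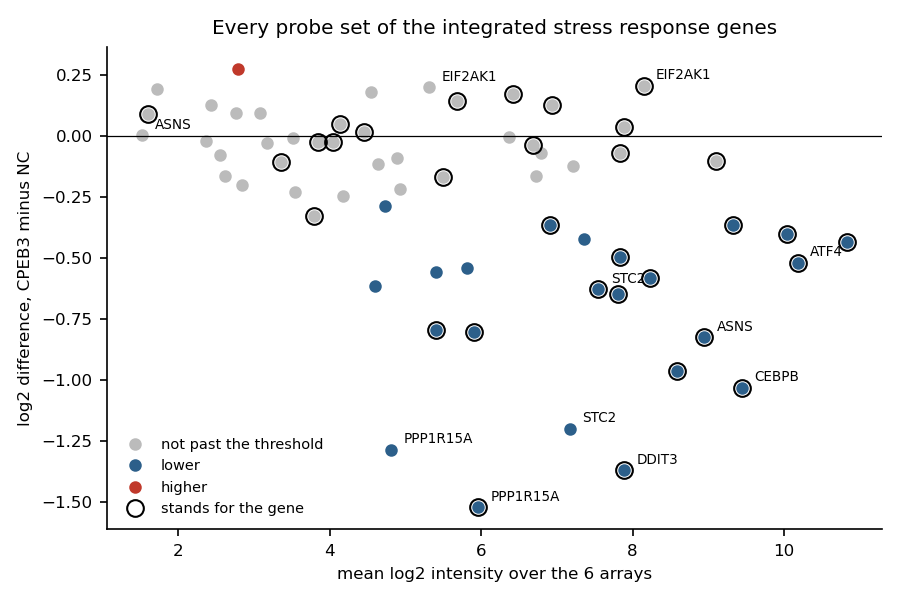
Log2 difference (vertical axis) against mean log2 intensity over the 6 arrays (horizontal axis) for the 63 probe sets of the 32 genes; ringed points stand for their gene, blue points fell, the red point rose and grey points did not pass. Both probe sets of PPP1R15A and of STC2 fell, whereas the second ASNS probe set lies near the lower end of the scale.

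The scaling of the arrays shifts all of these differences together. Centring each array on its spike-ins moved the median of all genes from 0.02 to 0.20 and that of the 32 genes from -0.35 to -0.17, so their median relative to all genes was -0.37 under both. So centred, 13 of the 32 genes were lower and 5 higher, against 5.25% and 39.3% of all genes. The 13 were among the 16 given here, and PHGDH, PSAT1 and GDF15 were lost. The 5 that were higher were EIF2AK1 (0.38), EIF2AK3 (0.35), ATF5 (0.32), PSPH (0.30) and VLDLR (0.27). ATF4 then differed by -0.34 and PPP1R15B by -0.32, while DDIT3 (-1.19), PPP1R15A (-1.34) and CEBPB (-0.85) kept most of their fall.

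**Figure D5:**
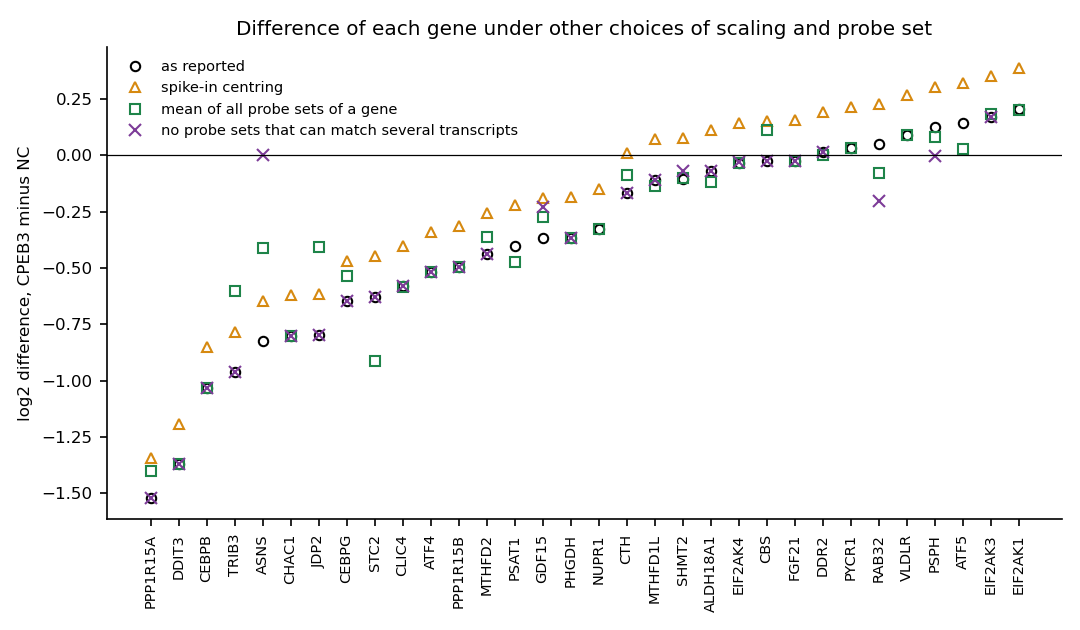
Log2 difference (vertical axis) of each of the 32 genes as reported (black circles), with spike-in centring (orange triangles), with the mean of all probe sets of the gene (green squares) and without the probe set types _s_at, _x_at and _a_at (purple crosses). Spike-in centring moves every gene up by the same amount; PPP1R15A, DDIT3 and CEBPB stay lowest, and ASNS moves most with the choice of probe set.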

How the data were processed

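The authors deposited 1 linear intensity for every probe set of every array. RMA is the tool named per the submitters' processing notes, and its version and the return to a linear scale were not stated. RMA makes array distributions alike and compresses dim differences, so total RNA per cell was not captured. Array medians were 14.8 to 15.2. Values were turned to log2 before any test.

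Groups came from the sample titles. Differences (CPEB3 minus NC) were fitted by group with lmFit and eBayes (limma 3.58.1, R 4.3.3; two-sided, Benjamini-Hochberg over 19777 genes, threshold 0.05; 4 residual and 5.06 prior degrees of freedom). Platform annotation named the genes, and 1801 probe sets naming more than 1 symbol were left out. Array number sets the precision, and detection calls were not applied.

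The members and lists were chosen with earlier results of these data known. Every member was named, with CPEB3, EIF2AK2, ATF3, the C/EBP genes and, in each neighbouring list, up to 4 genes with the largest change past the threshold. Of the other listed genes, 8 lacked a single-symbol probe set and were not analysed here. The steps were tested on simulated data. Alternatives were other probe set rules, scalings, variance models, a replicate block, a stricter threshold, and leaving out each array. Figures used matplotlib 3.10.9.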

Additional observations from a re-analysis of the deposited data

How the results depend on the processing

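Over the alternatives that gave a value, 12 of the 16 genes that fell kept direction and call in each; the exceptions were PHGDH, PSAT1, GDF15 and ASNS. ASNS turned to 0.002 without probe sets of the types _s_at, _x_at and _a_at, where a probe set near the floor is all that is left. The count of members that rose, 1 as reported, was 2 with the mean of probe sets (EIF2AK1 and EIF2AK3) and 5 with spike-in centring. It was 0 with median centring, at a threshold of 0.01 and when any array was left out (0 in each). Without the probe set types named it was also 0, but EIF2AK1 has only such probe sets and was not tested there. In that setting 13 of the 26 members left were lower. With spike-in centring, all genes gave 7767 higher and 1038 lower, and at a threshold of 0.01 they gave 1083 and 1520. Leaving out an array gave 15 to 16 members lower, 1512 to 1942 of all genes higher and 1861 to 2412 lower.

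In the neighbouring lists, the mean of probe sets gave 4 eIF2 and eIF2B genes higher and 2 IRE1 and ATF6 branch genes lower. Spike-in centring gave 7 higher and 1 lower for eIF2 and eIF2B, 7 and 17 for other targets, 17 and 1 for the IRE1 and ATF6 branches, and 3 and 1 for other C/EBP and bZIP genes, against 39.3% and 5.25% of all genes.

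The other changes of sign were in genes that had not passed as reported. With the mean of probe sets CBS became 0.114 and RAB32 -0.077. With the most variable probe set ATF5 became -0.114, DDR2 -0.017, RAB32 -0.202 and CBS 0.274, the last past the threshold (limma, Benjamini-Hochberg adjusted p = 0.0301). Without the probe set types named PSPH became -0.004 and RAB32 -0.202, with median centring DDR2 -0.001, and with repeated quantile normalization EIF2AK4 0.01. Spike-in centring gave EIF2AK4 0.143, SHMT2 0.075, MTHFD1L 0.071, ALDH18A1 0.11, CTH 0.011, CBS 0.154 and FGF21 0.155. Leaving out an array moved PYCR1 between -0.003 and 0.057, CBS between -0.093 and 0.06, FGF21 between -0.089 and 0.023, DDR2 between -0.034 and 0.06 and RAB32 between -0.052 and 0.146. The cause of these changes was not tested, beyond the choice that made each.

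Same-numbered arrays share only a number (correlations of their deviations 0.00, -0.02 and 0.12; 2 of 6 arrays correlated best with their own number). With the replicate number as a block the 16 falls kept their calls and the count of rises was 0, EIF2AK1 having a limma Benjamini-Hochberg adjusted p of 0.073. It changed no other member call.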
